A study of Mus musculus with 15 samples.

Results

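Transcripts of 10 genes of the NF-kB system were followed in 4T1 cells: the 5 subunits of the transcription factor (Nfkb1, Nfkb2, Rel, Rela and Relb) and 5 genes known as its feedback regulators or targets (Nfkbia, Nfkbiz, Tnfaip3, Birc3 and Icam1). They were taken by symbol from a count table of 40402 genes, and all 10 have a row. 4T1 is an established, transplantable mouse mammary carcinoma cell line that serves as a model of triple-negative breast cancer. The cells carry no engineered change (genotype WT in the labels). The 5 conditions were untreated cells, an extract of blackberry (BLA) or of blueberry (BLU), and gold nanoparticles made with one extract or the other (BLA-A from blackberry, BLU-A from blueberry), given a day after seeding in RPMI1640 with serum. Untreated cells are the only control, and no library has gold particles without berry material, so effects of the gold and of the extract in BLA-A and BLU-A cannot be told apart.

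NF-kB is a family of dimeric transcription factors. In resting cells the dimers are held in the cytoplasm by IkB proteins, and signals from receptors for tumor necrosis factor, interleukin-1 or microbial products lead the IKK kinases to mark IkB for destruction, which lets the dimers enter the nucleus. The canonical arm works mainly through p65 (Rela), c-Rel (Rel) and p50, made from the precursor encoded by Nfkb1; the noncanonical arm works through RelB and p52, made from the precursor encoded by Nfkb2. Several genes that the factor switches on encode its own brakes: IkB-alpha (Nfkbia) binds and exports the dimers, and A20 (Tnfaip3) edits ubiquitin chains upstream of IKK. Transcript levels of subunits do not report where the proteins are or whether they are active, and neither location nor activity was measured by these libraries.

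The upstream sequences are shown because several members are known to be both parts and targets of the system. The RefSeq promoter table (assembly GRCm38.p6) holds 10 start sites for 7 of the 10 members, and Nfkb1, Relb and Nfkbiz have no entry. The 250 bases before each start were searched on both strands for the 10-base kappa-B consensus, the site that NF-kB dimers bind, and overlapping matches were shown as 1 run of capitals. Matches lie upstream of 6 of these 10 starts, in 4 members: Nfkb2, Rel, Nfkbia and Tnfaip3. Over the whole table, 7.25% of 32851 promoters and 8.23% of 27025 genes hold a match. No match was found for Rela, Birc3 or Icam1 in these windows, which says only that the letters are absent there. Below, each sequence is read 5′ to 3′ on the strand of its gene, placed on GRCm39 by exact match, with the kappa-B match in capitals. The 150 bases before the start of Nfkbia (chr12:55539433-55539582, minus strand), which lie outside the annotated gene, hold 1 match:
Nfkbia: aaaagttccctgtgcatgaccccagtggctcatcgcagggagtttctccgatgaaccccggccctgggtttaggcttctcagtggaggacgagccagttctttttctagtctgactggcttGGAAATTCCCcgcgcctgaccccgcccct
Stretches of 30 bases around matches upstream of the first listed start of Nfkb2 (chr19:46293127-46293156 and chr19:46293146-46293175, plus strand), the start of Rel (chr11:23721042-23721071, minus strand) and the second listed start of Tnfaip3 (chr10:18891264-18891293 and chr10:18891159-18891188, minus strand) are given for comparison. All 5 lie within the gene as GENCODE M39 annotates it, and all but the upstream Tnfaip3 stretch overlap an annotated exon:
Nfkb2 upstream: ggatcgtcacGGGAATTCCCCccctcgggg
Nfkb2 at the start: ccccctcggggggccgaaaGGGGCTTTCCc
Rel: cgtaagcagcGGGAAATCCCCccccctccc
Tnfaip3 upstream: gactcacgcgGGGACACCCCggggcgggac
Tnfaip3 at the start: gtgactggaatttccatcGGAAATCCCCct
The capitals run over 11 bases in the first Nfkb2 stretch and in Rel, where 2 matches overlap by all but 1 base. The Tnfaip3 match at the start and the second of the overlapping Rel matches are the same 10 letters, GGAAATCCCC. Binding at these sites was not measured here.

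Each condition was counted as 1 sequenced library. The labels list 3 samples per condition, the paper treats replicates that it does not specify as biological, and a page of the supplement counts every column as a library. The sequencing report in that supplement, however, gives 1 total of raw reads per condition with 3 read subsets under it, and the 3 columns of each condition differed by less than sampling noise (chi-square per degree of freedom of 0.0951 to 0.475, where independent draws give about 1). They were therefore averaged and counted as 1 sample, with 25613778 to 26956442 counts per library. No single treatment can be tested against untreated cells, and the 95% intervals below are exact Poisson or exact binomial intervals that cover counting error only, not differences between cultures. Levels are CPM, the usual depth-scaled read count, after TMM scaling, and log2 fold changes are taken on CPM plus 0.5, which slightly understates the change of low genes. A gene was counted as past the threshold at a log2 fold change over 1 in size. Epithelial markers summed to 952 to 1709 CPM, with Krt18 at 452 to 690 CPM, while the T cell list summed to at most 1.43 CPM and the endothelial list to at most 4.97 CPM. Of 8 macrophage markers, 2 to 4 reached 1 CPM and the sum was 18.7 to 30.3 CPM. Its high value, in BLA-A, came from Cd14 (20.4 CPM against 6.98 to 9.71 elsewhere), while Adgre1 was at 0.216 CPM there against 2.14 in untreated cells and Ptprc at 0.302 against 1.503; over the 5 macrophage markers tested, the median log2 fold change in BLA-A was -0.73. Lyz2 had no count in any library. Of 6 fibroblast markers, 2 or 3 reached 1 CPM, and Pdgfra gave 86.1 to 102 of the 88.3 to 104 CPM of that list. Krt5, Lum and Cd3d also had no count in any library. The epithelial sum and Cd14 were highest in BLA-A, the library that stands out below, and their part in the results was not tested. The labels also give a different date as batch for every column, so date and column cannot be told apart.

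The levels took 2 forms (plot of levels by library). Nfkb1, Relb, Nfkbiz, Birc3 and Icam1 were lowest in untreated cells. The share of all genes that were lowest there was not computed. Nfkb2, Rel, Rela, Nfkbia and Tnfaip3 had 1 high library, BLA-A, and lay near or below untreated cells in the others. BLA-A was the highest library for 8 of the 10 genes, against 29.3% of the 17647 genes tested and 38.3% of the 9771 genes with a mean of at least 10 CPM. All 10 genes passed the filter of 1 CPM in at least 1 library, and Icam1 was the only one with a mean under 10 CPM.

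**Figure D1:**
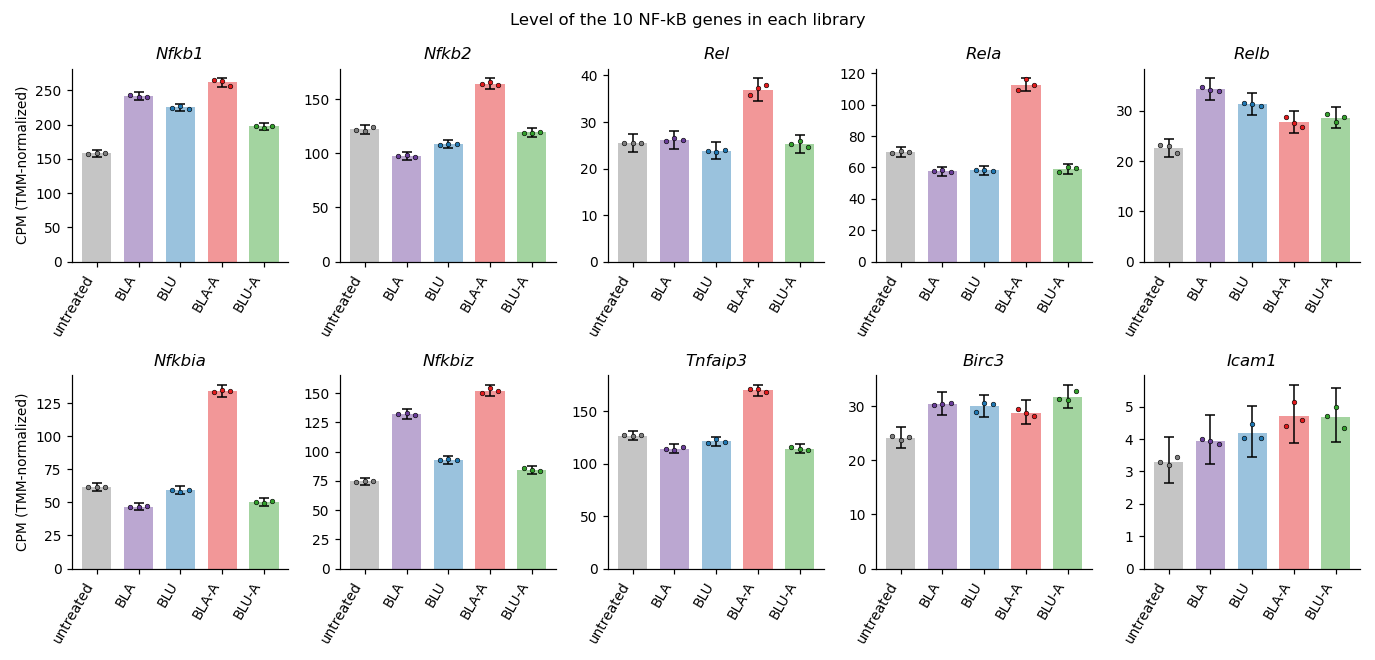
Level of each of the 10 genes (CPM after TMM scaling, vertical axis from 0, scaled to each gene) in the 5 libraries. Bars are the mean of the 3 columns of 1 library, points the 3 columns and error bars the 95% Poisson interval of the mean count; the BLA-A bar is the highest for 8 genes, and Relb (BLA) and Birc3 (BLU-A) are the exceptions.

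Nfkb1 encodes p105, the precursor of p50 (chromosome 3, 135290264 to 135397742, minus strand, GRCm39). It stood at 158 CPM in untreated cells, 242 with BLA, 225 with BLU, 262 with BLA-A and 197 with BLU-A. No 2 libraries next to each other in level lay within counting error. The log2 fold changes against untreated cells were 0.61 (95% interval 0.56 to 0.67) in BLA, 0.51 (0.45 to 0.57) with BLU, 0.73 (0.67 to 0.78) with BLA-A and 0.32 (0.26 to 0.38) with BLU-A. All 4 treated libraries were thus above the untreated one by more than counting error, with the largest fold at 1.65 and none past the threshold.

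Rela encodes p65, the main activating subunit of the canonical arm (chromosome 19, 5687493 to 5698161, plus strand). It stood at 69.9 CPM in untreated cells, 57.6 with BLA, 58.2 with BLU, 113 with BLA-A and 58.9 with BLU-A. The BLA, BLU and BLU-A libraries lay within counting error of one another and below untreated cells, with log2 fold changes of -0.28, -0.26 and -0.24. BLA-A stood apart at 0.69 (0.60 to 0.78), a fold of 1.61. In counts, which no scaling changes, there were 2.26 Nfkb1 reads for each Rela read in untreated cells, 4.19 with BLA, 3.87 with BLU, 2.32 with BLA-A and 3.35 with BLU-A. The ratio in BLA-A was thus near that of untreated cells, while it was higher in the other 3 treated libraries.

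Rel encodes c-Rel, the subunit best known from lymphocytes (chromosome 11, 23686847 to 23721264, minus strand). It was less abundant, at 25.5 CPM in untreated cells, 26.2 with BLA, 23.8 with BLU and 25.2 with BLU-A, which did not differ beyond counting error. BLA-A stood at 36.9, with a log2 fold change against untreated cells of 0.53 (0.39 to 0.68), and those of the other 3 libraries were between -0.10 and 0.04.

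Nfkb2 encodes p100, the precursor of p52 (chromosome 19, 46292759 to 46303812, plus strand). It stood at 122 CPM in untreated cells, 97.4 with BLA, 108 with BLU, 164 with BLA-A and 119 with BLU-A. Untreated and BLU-A lay within counting error of each other, BLA (-0.33) and BLU (-0.17) were lower, and BLA-A was higher (0.43, 0.36 to 0.50). On the opposite strand Nfkb2 overlaps 4833438C02Rik, at 2.73, 1.01, 2.45, 11.6 and 2.56 CPM in the same order of libraries, and Psd, at 14.3 to 23.6 CPM. Counting used strand per the study's methods, and whether it separated Nfkb2 from these partners was not tested.

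Relb encodes RelB, the partner of p52 (chromosome 7, 19339017 to 19363425, minus strand). It differed from the other subunits in that BLA-A was not its highest library: it stood at 22.6 CPM in untreated cells, 34.3 with BLA, 31.3 with BLU, 27.7 with BLA-A and 28.6 with BLU-A. The log2 fold changes were 0.59 (0.45 to 0.75), 0.46 (0.32 to 0.62), 0.29 (0.13 to 0.46) and 0.33 (0.18 to 0.50). Untreated cells were the lowest beyond counting error, while neighbours among the treated libraries did not differ beyond it. There were 0.352 Relb reads per Nfkb2 read with BLA, 0.288 with BLU and 0.240 with BLU-A, against 0.185 in untreated cells and 0.169 in BLA-A.

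Nfkbia, the IkB-alpha gene (chromosome 12, 55535332 to 55539432, minus strand), had the widest range of the 10. It stood at 61.3 CPM in untreated cells (95% interval 58.4 to 64.3), 46.7 in BLA (44.2 to 49.3), 59.1 in BLU (56.3 to 62.0), 134 in BLA-A (129 to 139) and 50.2 in BLU-A (47.6 to 53.0). BLA-A was 2.18-fold above untreated cells, a log2 fold change of 1.12 (1.04 to 1.22), and it is 1 of 2 members past the threshold in any treatment. BLA (-0.39) and BLU-A (-0.28) were below untreated cells, and BLU (-0.05) did not differ from them beyond counting error. The long noncoding RNA annotated on its opposite strand, Gm36634, had no count in any library. There were 0.877 Nfkbia reads per Rela read in untreated cells, 0.810 with BLA, 1.02 with BLU, 1.19 with BLA-A and 0.852 with BLU-A.

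Nfkbiz encodes IkB-zeta, a nuclear IkB protein that works as a co-activator of a subset of targets (chromosome 16, 55631738 to 55659262, minus strand). It stood at 74.5 CPM in untreated cells, 132 with BLA, 92.9 with BLU, 152 with BLA-A and 84.5 with BLU-A, and libraries next to each other in level differed beyond counting error. Both blackberry preparations gave the larger values, with log2 fold changes of 0.82 (0.75 to 0.91) in BLA and 1.02 (0.95 to 1.11) in BLA-A. The blueberry preparations were at 0.32 (0.23 to 0.40) for BLU and 0.18 (0.09 to 0.27) for BLU-A. The BLA-A value is just past the threshold, with a lower bound under it.

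Tnfaip3, the A20 gene (chromosome 10, 18874201 to 18891405, minus strand), stood at 127 CPM in untreated cells, 114 with BLA, 121 with BLU, 170 with BLA-A and 114 with BLU-A. The order of libraries was that of Nfkbia, over a narrower range: its highest library was 1.49 times its lowest, against 2.87 for Nfkbia. In both genes untreated cells lay within counting error of BLU, and BLU-A of BLA, so the order is not resolved there. The log2 fold changes were 0.42 (0.36 to 0.49) in BLA-A and -0.15 to -0.06 in the other 3.

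Birc3 encodes cIAP2, an inhibitor of apoptosis and ubiquitin ligase of the receptor complexes (chromosome 9, 7845790 to 7873229, minus strand). It was the flattest member, at 24.2 CPM in untreated cells, 30.4 with BLA, 29.99 with BLU, 28.8 with BLA-A and 31.7 with BLU-A. All 4 treated libraries lay above the untreated one beyond counting error, with log2 fold changes of 0.33, 0.31, 0.25 and 0.39, and within counting error of their neighbours.

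Icam1 encodes an adhesion molecule that leukocytes bind (chromosome 9, 20926672 to 20940113, plus strand). It was the least abundant member, with 88 counts in untreated cells, 107 with BLA, 115 with BLU, 109 with BLA-A and 124 with BLU-A, or 3.31, 3.93, 4.18, 4.71 and 4.69 CPM. The intervals of BLA and BLU against untreated cells include 0, and those of BLA-A (0.45, 0.09 to 0.93) and BLU-A (0.45, 0.10 to 0.91) do not.

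Levels can be compared between genes only per length. Per kilobase of annotated exon, untreated cells held 31.6 CPM of Nfkbia, 21.4 of Rela, 15.5 of Nfkb2, 13.3 of Nfkbiz, 13.0 of Tnfaip3 and 12.3 of Nfkb1, then 4.44 of Relb, 3.29 of Rel, 2.78 of Birc3 and 0.666 of Icam1. Since reads were counted over whole genes, introns included, a long gene such as Nfkb1 (107 kb with 12.8 kb of exon) may gain reads from introns. Per kilobase of the whole gene the first places went to Nfkbia (14.9 CPM), Nfkb2 (11.1) and Tnfaip3 (7.36), and Nfkb1 stood at 1.47.

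**Figure D2:**
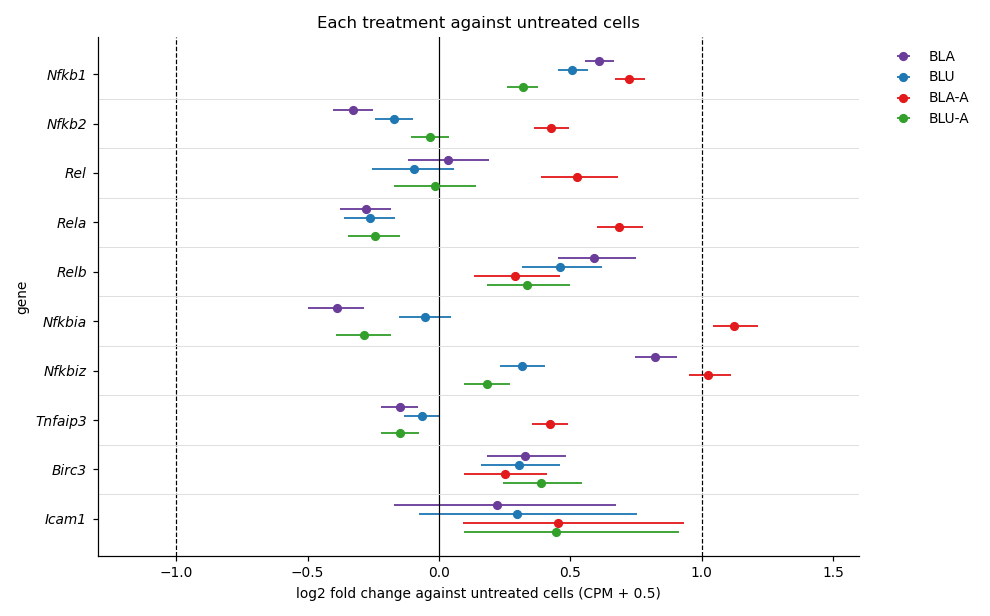
Log2 fold change of each gene against untreated cells (horizontal axis, on CPM plus 0.5) for BLA, BLU, BLA-A and BLU-A; points are 1 library against 1, bars are 95% intervals of counting error and dashed lines mark -1 and 1. Only the BLA-A points of Nfkbia (1.12) and Nfkbiz (1.02) pass 1, and the 4 points of Nfkb1, Relb, Nfkbiz, Birc3 and Icam1 lie right of 0.

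Set against untreated cells one treatment at a time, the members lay on both sides of 0 with the extracts and with BLU-A, and above it with BLA-A. The 4 comparisons share the untreated library, so they are not independent of one another. In BLA, 0 of 10 members passed the threshold in either direction, against 7.93% of all genes tested that were higher and 8.55% that were lower, and the members' median log2 fold change was 0.13 against -0.01 over all genes. In BLU, 0 of 10 passed, against 5.66% and 4.64% of all genes, with a median of 0.12 against -0.01. In BLU-A, 0 of 10 passed, against 3.35% and 4.51%, with a median of 0.08 against 0.00. Among the 9771 genes with a mean of at least 10 CPM, as all members but Icam1 have, the shares were smaller. They were 3.61% higher and 1.61% lower in BLA, 1.99% and 0.41% in BLU, and 0.76% and 0.10% in BLU-A. In these 3 conditions the members that counting error separated from untreated cells went both ways. BLA had 4 higher and 4 lower, BLU 4 and 2, and BLU-A 5 and 3. The share of all genes that counting error would separate was not computed, so these counts have no background.

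In BLA-A, 2 of 10 members were past the threshold upwards and 0 downwards, against 8.54% and 12.4% of all genes tested. Among genes with a mean of at least 10 CPM the shares were 7.86% and 4.72%. The median of the members was 0.49 against -0.01 over all genes, their range was 0.25 to 1.12, and all 10 lay above untreated cells beyond counting error. By sign alone, all 10 were above 0, against 49.1% of all genes tested and 56.5% of those with a mean of at least 10 CPM. The share of all genes above untreated cells beyond counting error was not computed. The subunits had a median of 0.53 and the feedback and target genes one of 0.45. Scaling by total counts alone shifted the log2 fold changes of all genes in BLA-A by a median of -0.19. Under it the members' median was 0.31, 7 of 10 lay above untreated cells beyond counting error (Relb at 0.10, Birc3 at 0.06 and Icam1 at 0.28 did not), and 0 members passed the threshold, with Nfkbia at 0.93 and Nfkbiz at 0.83. The split of all genes past the threshold was then 1077 higher and 2710 lower, in place of 1507 and 2189, and no member changed sign against untreated cells in BLA-A.

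Placed among the 9771 genes with a mean of at least 10 CPM, Nfkbia was above 94.1% of genes in BLA-A, but above 19.9% for BLA, 45.4% for BLU and 8.66% for BLU-A. Nfkbiz was above 93.6% of genes in BLA and 92.6% in BLA-A, and above 78.8% and 74.5% in BLU and BLU-A. Nfkb1 was above 84.5% to 88.4% of genes in all 4. Rela was above 83.1% in BLA-A and only 12.0% in BLU-A. The other 6 members were above 60.4% (Birc3) to 75.8% (Rel) of genes in BLA-A.

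**Figure D3:**
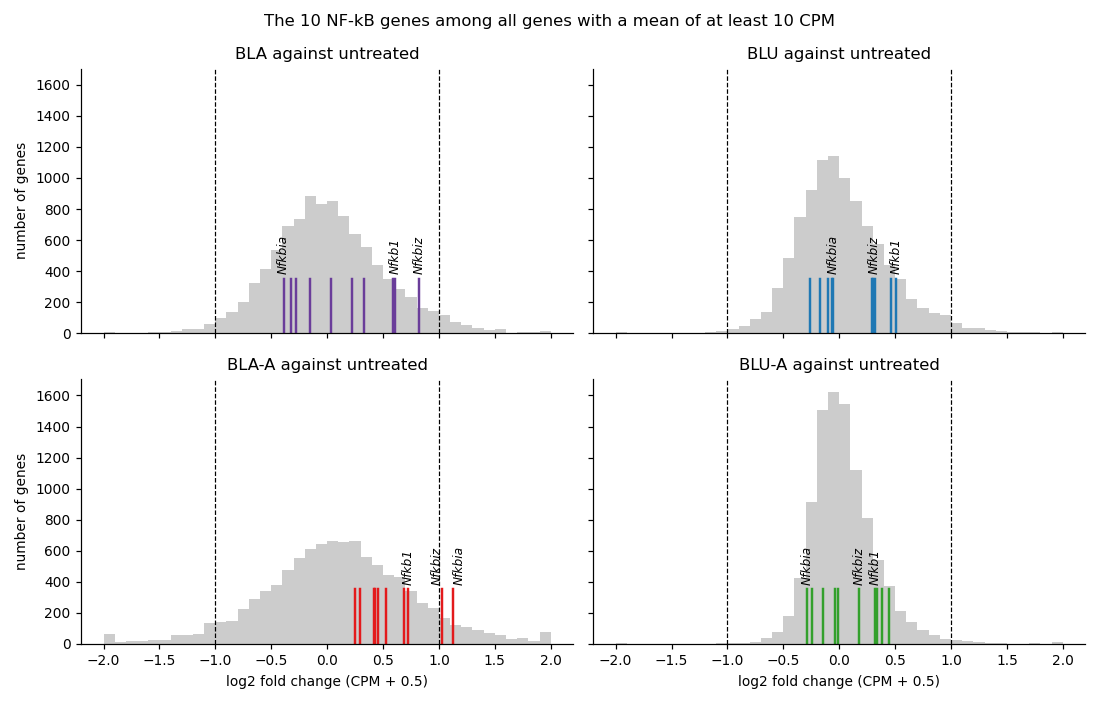
Log2 fold changes against untreated cells for the 9771 genes with a mean of at least 10 CPM (grey; values beyond -2 or 2 are gathered in the outermost bins) with the 10 members as coloured lines of equal height, 1 panel per treatment; Icam1 is drawn although its mean is under 10 CPM. The members lie between 0.25 and 1.12 in BLA-A and on both sides of 0 in the other panels; in BLA-A Nfkbia and Nfkbiz pass the dashed line at 1.

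The nanoparticles were next compared with the extract of the same berry. For blackberry, Nfkbia was 2.85-fold higher in BLA-A than in BLA, a log2 difference of 1.51 (1.43 to 1.62), and was the only member past the threshold. Rela followed with 0.96 (0.88 to 1.06), and passed it with DESeq2 size factors and with no filter on low counts (1.04 under each), then came Nfkb2 with 0.75, Tnfaip3 with 0.57 and Rel with 0.49. Nfkbiz (0.20) and Nfkb1 (0.12) were higher by small margins, Icam1 (0.23) and Birc3 (-0.08) did not differ beyond counting error, and Relb was lower (-0.30). In all, 1 of 10 members passed upwards and 0 downwards, against 11.6% and 13% of all genes tested, with a median of 0.36 against -0.08. Among genes with a mean of at least 10 CPM the shares were 11.6% and 5.88%. Scaling by total counts alone took Nfkb1 to -0.04 and Nfkbiz to 0.04, both within counting error, and the split of all genes from 2039 higher and 2292 lower to 1629 and 2875. Birc3 was then lower in BLA-A than in BLA beyond counting error (95% interval -0.39 to -0.09), while DESeq2 size factors took it to 0.00 in this comparison.

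For blueberry the differences were small. Nfkb2 (0.14) was higher in BLU-A than in BLU beyond counting error, Nfkb1 (-0.19), Nfkbia (-0.23), Nfkbiz (-0.14) and Tnfaip3 (-0.08) were lower, and the other 5 did not differ beyond it. None of the 10 members passed the threshold, against 2.88% of all genes that were higher and 3.9% that were lower, and the median was -0.03 against -0.02. Among genes with a mean of at least 10 CPM the shares were 0.29% and 0.07%. For Nfkbia, the gene with the widest gap, the nanoparticle library differed from the extract library by 1.51 with blackberry and by -0.23 with blueberry. With 1 library on each side, this difference between berries was not tested.

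**Figure D4:**
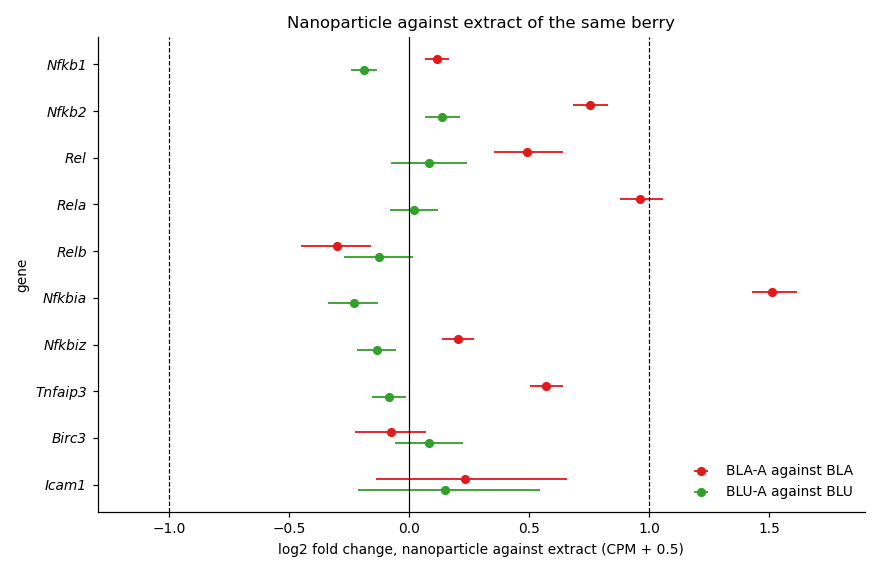
Log2 fold change of the nanoparticle against the extract of the same berry (horizontal axis, on CPM plus 0.5), in red BLA-A against BLA and in green BLU-A against BLU, with 95% intervals of counting error and dashed lines at -1 and 1. The red points of Nfkbia (1.51), Rela (0.96) and Nfkb2 (0.75) lie far right of the green ones (-0.23, 0.02 and 0.14), and both points of Relb lie left of 0.

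Libraries can be tested only when treatments are pooled. When BLA, BLU, BLA-A and BLU-A together were compared with untreated cells (edgeR quasi-likelihood test, Benjamini-Hochberg adjustment over 17647 genes), 0 of 10 members passed an adjusted p of 0.05, and 0 did at an unadjusted p under 0.05 or with DESeq2. Over all genes 4 passed, or 0.0227%, and 481 did unadjusted. Nfkb1 came nearest, with a log2 fold change of 0.55 (SE 0.26, unadjusted p = 0.0687, adjusted p = 0.999 by the edgeR quasi-likelihood test), and it was higher in 4 of 4 treated libraries. This fit takes the spread between different treatments as error. All 4 treated libraries were set against the same untreated library, so the 4 of 4 is not 4 independent results. The 4 of 4 also held for Relb, Nfkbiz, Birc3 and Icam1. The share of all genes for which it holds was not computed, so it has no background.

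When both nanoparticles were compared with both extracts by the same test, 0 of 10 members passed, 0 did unadjusted and 0 did with DESeq2. Over all genes 0 passed, or 0%, with 1108 at an unadjusted p under 0.05 and 34 called by DESeq2. With no filter on low counts 697 of 28335 genes were called and 0 members. At an unadjusted p under 0.05 there were 2471 of the 28335 genes and 3 members, among them Nfkbia at an adjusted p of 0.053 (edgeR quasi-likelihood test). With the filter, the lowest adjusted p among the members was 0.682 (edgeR quasi-likelihood test), for Nfkbia (log2 fold change 0.88, unadjusted p = 0.101), Rela (0.64, unadjusted p = 0.112) and Nfkb2 (0.53, unadjusted p = 0.0788). Without the BLU-A library, which leaves BLA-A as the only nanoparticle library and assumes that it varies as BLA and BLU do, 4 members were called: Nfkbia (log2 fold change 1.45, adjusted p = 1.63e-05 by the edgeR quasi-likelihood test), Rela (1.07), Nfkb2 (0.78) and Tnfaip3 (0.63). Of all genes 4108 of 17626 were then called, and leaving out any other library called 0 members.

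The rest of the pathway was examined through 7 lists of 82 genes, of which 75 passed the filter of 1 CPM. In BLA-A, 19 of the 75 were past the threshold upwards and 1 downwards, against 8.54% and 12.4% of all genes tested, with a median of 0.41. Under total-count scaling these were 14 and 1, with a median of 0.22, while 6.10% of all genes were then past it upwards. With DESeq2 size factors they were 20 and 0, with a median of 0.47, beside 9.53% of all genes upwards. With TMM scaling BLA had 1 past it upwards, BLU 1 and BLU-A 0, with 0 downwards in each and medians of 0.11, 0.07 and 0.00. The shares of all genes past it upwards were 7.93%, 5.66% and 3.35% for these.

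Ligands and secreted targets had 8 of 13 tested genes past the threshold upwards in BLA-A and 0 downwards, with a median of 1.06, or 6 of 13 and 0.87 under total-count scaling. Csf3, the granulocyte growth factor gene, stood at 66.7 CPM in untreated cells, 53.8 with BLA, 44.6 with BLU, 233 with BLA-A and 51.6 with BLU-A. The chemokine gene Ccl2, which draws monocytes, was at 3.76, 2.50, 5.42, 27.3 and 4.42 CPM in the same order. BLA-A was again the high library, with a log2 difference from BLA of 2.11 for Csf3 and 3.21 for Ccl2. Cxcl2 and Ccl20 were also highest in BLA-A, at low levels. Cxcl2 stood at 0.301, 0.699, 1.56, 3.54 and 0.454 CPM in the same order of libraries, on 8 to 82 counts. It also passed the threshold in BLU, at a log2 fold change of 1.37. Ccl20 stood at 1.24, 2.9, 2.62, 6.18 and 0.718 CPM, with log2 fold changes of 0.97 in BLA and 0.84 in BLU. Tnf itself reached at most 0.346 CPM and Il6 at most 0.864; these were named after their values were seen.

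Among 15 other tested targets, 4 were past the threshold upwards in BLA-A and 1 downwards, with a median of 0.41, or 0.22 under total-count scaling. The 1 downwards was Vcam1, at 60.3 CPM in BLA-A against 124 in untreated cells, a log2 fold change of -1.04. With DESeq2 size factors 0 of these targets passed downwards. Ier3, an immediate early stress gene, had the largest value: 125 CPM in untreated cells, 94.1 with BLA, 64.2 with BLU, 806 with BLA-A and 108 with BLU-A, a log2 fold change of 2.68 in BLA-A. Mmp9, a matrix protease, stood at 201, 144, 182, 583 and 177 CPM, and Ptgs2, the inducible cyclooxygenase, at 383, 513, 376, 1048 and 323. Nos2, the inducible nitric oxide synthase, was at 3.76, 6.14, 2.83, 17.8 and 2.34 CPM. For each of these genes the other 3 treated libraries lay within a log2 fold change of 1 of untreated cells.

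The other IkB genes had 2 of 4 past the threshold upwards in BLA-A. Nfkbib, which encodes IkB-beta, stood at 9.92 CPM in untreated cells, 7.46 with BLA, 11.0 with BLU, 25.5 with BLA-A and 8.92 with BLU-A. BLA-A was its highest library and BLA its lowest, as for Nfkbia, where BLA and BLU-A lay within counting error of each other. Nfkbid was at 4.41 CPM in BLA-A and at 0.605 to 1.80 in the other libraries. Among 11 receptor genes 3 were past the threshold upwards in BLA-A, with a median of 0.82, or 1 of 11 and 0.63 under total-count scaling. The 3 were Tnfrsf1a, the main receptor for tumor necrosis factor, at 68.6 CPM against 31.2 in untreated cells, Ltbr, which feeds the noncanonical arm, at 50.2 against 23.0, and the Toll-like receptor gene Tlr2 at 20.0 against 8.46. Ltbr was lowest in BLA, at 11.4 CPM, a log2 fold change of -0.98.

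The kinases, adaptors and negative regulators had 2 genes past the threshold in BLA-A. Of 10 IKK and TAK1 kinase genes and partners, 0 passed the threshold in any treatment, and their medians were 0.13 for BLA, 0.20 for BLU, -0.07 for BLA-A and 0.09 for BLU-A. Of 13 adaptor genes 1, Ticam1, which carries signals of Toll-like receptors, was past it in BLA-A, at 15.6 CPM against 6.43. Of 9 other negative regulators 1, the ribonuclease gene Zc3h12a, was past it in BLA-A, at 44.0 CPM against 20.6, and the list's median there was -0.03, or 0.03 with DESeq2 size factors. Under total-count scaling 0 of these 9 passed and the median was -0.22. These shares stand beside 8.54% of all genes.

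**Figure D5:**
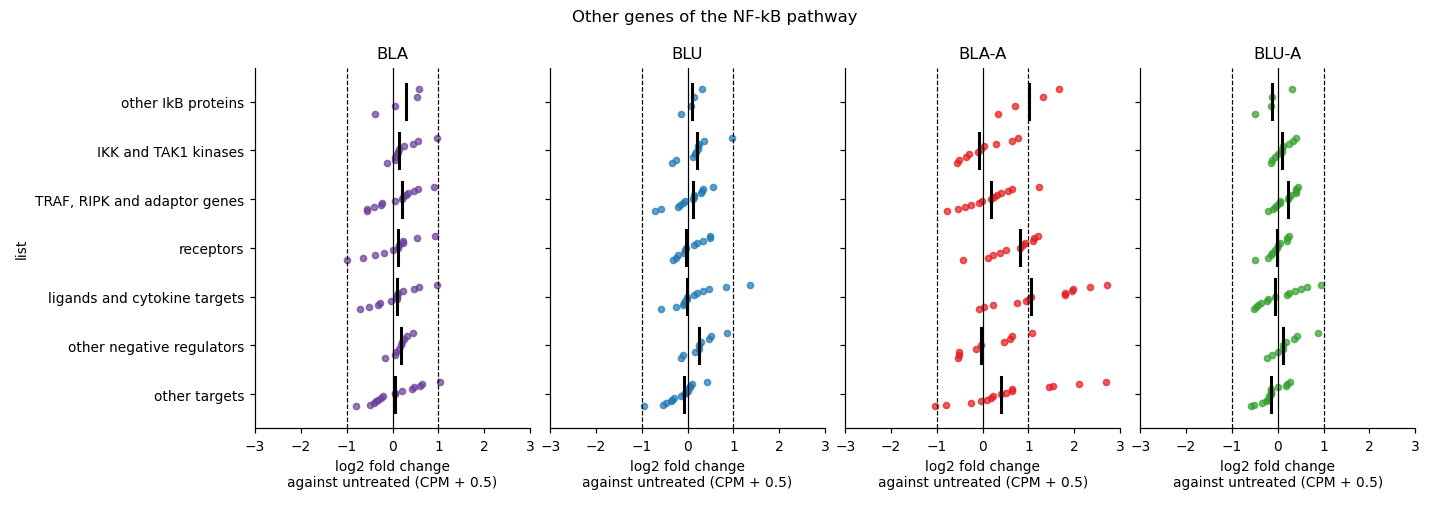
Log2 fold changes against untreated cells (horizontal axis, on CPM plus 0.5) of the 75 tested genes in 7 lists of the pathway, 1 panel per treatment; each point is a gene, black bars are medians and dashed lines mark -1 and 1. In BLA-A the medians of the ligands (1.06), other IkB genes (1.02) and receptors (0.82) lie to the right, and that of the kinases is at -0.07; 1 gene passes the lines for BLA, 1 for BLU and 0 for BLU-A.

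Over the 4 log2 fold changes against untreated cells, Nfkb2 and Tnfaip3 were the closest pair of members (Euclidean distance 0.24), followed by Birc3 with Icam1 (0.24) and Rel with Tnfaip3 (0.25). Among the 9771 genes with a mean of at least 10 CPM, those nearest to Nfkbia were Cd24a (distance 0.14), with -0.50 for BLA, -0.02 for BLU, 1.13 for BLA-A and -0.21 for BLU-A, and Mtx1 (0.17). Those nearest to Nfkbiz were Bnip3l-ps (0.14) and Txndc11 (0.18). Bnip3l-ps is a pseudogene by its symbol, and its count may share reads with the parent gene. These distances rest on 4 values from libraries with a shared reference and describe likeness only.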

How the data were processed

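Bulk RNA-seq counts of 15 columns, 3 for each of 5 conditions, were used. The authors deposited raw counts per gene for 40402 RefSeq genes; per the study's methods, reads were aligned to GRCm39 with STAR in OmicsBox and counted over whole genes by strand, with merged reads handled as single ends. The submitters' processing notes list DESeq2 1.36.0. Deposited tables of the authors' own differential expression and enrichment values (log2 fold change, p-value and score columns) were not used.

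Columns of a condition were averaged where a chi-square comparison of their counts, over genes averaging 10 counts or more, gave under 1.5 per degree of freedom, as in all 5. Total counts of 25613778 to 26956442 per library put 3 counts at 0.109 to 0.130 CPM. The filter kept 17647 genes that reached 1 CPM in any library. After TMM scaling, 0.5 was added to each CPM value before log2, and the threshold of 1 came from the study's methods. All genes were fitted with the edgeR quasi-likelihood test and Benjamini-Hochberg adjustment at 0.05, in 2 fits (4 treated libraries against untreated, and nanoparticles against extracts). DESeq2 1.42.0 was an alternative. The samples share replicate numbers in the labels, but same-numbered columns did not deviate together (mean correlation of deviations over 30 pairs of columns -0.00), so the replicate block is an alternative only. The code was tested on simulated data.

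The members, the gene lists and the alternatives were chosen with earlier results of these data known. Genes named besides the 10 members are, from each list, up to 4 genes with the largest mean size of log2 fold change among those past 1 in a treatment, the 2 genes nearest to each member past 1, and marker genes. Tnf, Il6, Vcam1, Krt5, Cd3d, Lum, 4833438C02Rik, Psd, Gm36634, Krt18, Pdgfra and Lyz2 are outside this rule and were named after their values were seen. Positions came from GENCODE M39 on GRCm39 and upstream sequences from RefSeq. R 4.3.3, edgeR 4.0.16, limma 3.58.1, Python 3.11.15, numpy 2.4.6, pandas 2.3.3, scipy 1.17.1 and matplotlib 3.10.9 were used.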

Additional observations from a re-analysis of the deposited data

Results flagged for a closer look

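Between nanoparticle and extract, 5 of the 10 members differed in opposite directions in the 2 berries, a share near the 41.3% of the 17647 genes tested. With 1 library on each side none of these differences was tested. The blackberry difference (BLA-A minus BLA) less the blueberry difference (BLU-A minus BLU) was 1.74 on the log2 scale for Nfkbia, 0.66 for Tnfaip3, 0.34 for Nfkbiz, 0.30 for Nfkb1 and -0.16 for Birc3. For Birc3 both differences lay within counting error, and under DESeq2 size factors and with no filter on low counts its blackberry difference was 0.00, on the same side as blueberry. Under total-count scaling its blackberry difference lay below 0 beyond counting error (95% interval -0.39 to -0.09). For Nfkb1 the blackberry difference was -0.04 under total-count scaling, so it then had the sign of the blueberry difference. For Nfkbia, Nfkbiz and Tnfaip3 each difference lay beyond counting error, upwards with blackberry and downwards with blueberry, but under total-count scaling the blackberry difference of Nfkbiz was 0.04, within it.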

How the results depend on the processing

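Scaling by total counts alone left 0 members past a log2 fold change of 1 in BLA-A against untreated cells, with a median of 0.31. DESeq2 size factors or no filter on low counts gave 2 members (Rela and Nfkbia) past it in BLA-A against BLA. With DESeq2 size factors 13.0% of all genes were past it upwards there, in place of 11.6%. With no filter the BLA-A median against untreated cells was 0.58. For the other genes of the pathway, alternatives chosen after the values were seen gave 2 genes past the threshold in BLA under either scaling and 2 in BLU with DESeq2 size factors. Leaving out each column number in turn kept the BLA-A median at 0.47 to 0.52, with 2 members past the threshold each time. Of 60 member fold changes, 18 left their counting interval under total-count scaling, 9 with no filter, 5 with DESeq2 size factors and 0 under either pseudocount. Signs changed in 5 cases: Birc3 (0.00) and Nfkb1 (-0.04) in BLA-A against BLA as given above, and Rel in BLU-A against untreated cells (0.00 with no filter or without replicate 3). In nanoparticles against extracts, 4 members were called without the BLU-A library. With the 15 columns entered as separate samples 5 members were called, and 3 with a replicate block. Over all 17647 genes these fits called 3553 and 2498. In nanoparticles against extracts, with 12 columns, 6 members were called, and 2 with the replicate block, beside 7812 and 6083 of all genes. The columns of a condition are subsets of 1 library, so these fits count each library more than once. Their p-values mix subsampling with the spread between treatments. All other alternatives of both tests called 0 members. Depth limits Icam1 alone among the members, at 88 to 124 counts.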
